A study of Mus musculus with 8 samples.

Results

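The matrix metalloproteases (MMPs), the ADAM and ADAMTS metalloproteases and the tissue inhibitors of metalloproteases (TIMPs) were followed in AML12 hepatocytes after silencing of Casp8. Members were every row of the deposited table whose gene symbol starts with Mmp or Adam and a digit, with Adamts, or with Timp and a digit from 1 to 4. This gave 85 of 34945 named genes, made up of 23 MMPs, 34 ADAMs, 19 ADAMTS genes, 5 ADAMTS-like genes and 4 TIMPs. The study compared 4 siCasp8 cultures, transfected with Casp8 siRNAs, with 4 Scr cultures, transfected with a scrambled control siRNA. Per the labels, both siRNAs were used at 40 nM with a lipid reagent and the cells were taken after 48 hours. AML12 is an established mouse hepatocyte line, derived from a mouse with a human TGF-alpha transgene, and all 8 cultures share that background. The labels give the genotype as Casp8 knockdown for siCasp8 and as WT for Scr. Poly-A RNA was sequenced, and the deposited values are normalized estimates per gene, called normalized values here.

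MMPs, ADAMs and ADAMTS proteases are zinc enzymes that act outside the cell or at its surface. MMPs cut collagens and other matrix proteins and are made as inactive precursors. ADAMs release the outer parts of membrane proteins, such as growth factors and cytokine receptors, and ADAMTS enzymes cut proteoglycans and process procollagen. TIMPs bind the active site of these enzymes and block it, and in the liver the balance between proteases and TIMPs is known for its part in the turnover of scar tissue.

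A group of 10 MMP genes lies side by side on chromosome 9 from 7272514 to 7699585 (GRCm38), and their promoters were searched for a short word. The word TGANTCA covers TGACTCA and TGAGTCA, which AP-1 factors of the FOS and JUN families are known to bind, and also TGAATCA and TGATTCA. It was searched on both strands of the RefSeq promoter windows (build GRCm38.p6, 250 bases before to 50 bases after the start site of each gene). It reads the same on either strand, and no other word was searched. Of the members with a window, 13 of 54 had the word (24.1%), against 8.97% of all 27025 genes with a window. Of members with a window and a mean normalized value of at least 10, 3 of 27 had it (11.1%), against 6.60% of all such genes. By position, it was present for 8 of the 10 cluster genes and for 5 of the other 44 members (11.4%). The 10 are neighbours of the same family, so their promoters may not be independent, and these shares were not tested. Counted by window, the word was in 7.81% of 32851. In the 8 cluster genes it began between 35 and 95 bases before the start site. Of all windows, 2.22% held it beginning between 100 and 30 bases before the start, unplanned bounds close around those positions. The stretches of 60 bases around it are shown because 8 neighbouring genes share the word while their RNA levels differ widely. Each is written 5′ to 3′ on the strand of the gene, with the word in capitals. In Mmp20 the word is TGAATCA, and in the others it is TGACTCA or TGAGTCA.

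Mmp13 (chr9:7272453-7272512, plus strand): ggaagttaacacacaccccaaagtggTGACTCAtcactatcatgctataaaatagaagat
Mmp12 (chr9:7347304-7347363, plus strand): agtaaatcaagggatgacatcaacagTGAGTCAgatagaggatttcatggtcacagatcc
Mmp1b (chr9:7388086-7388145, minus strand): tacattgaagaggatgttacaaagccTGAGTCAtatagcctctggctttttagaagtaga
Mmp3 (chr9:7445750-7445809, plus strand): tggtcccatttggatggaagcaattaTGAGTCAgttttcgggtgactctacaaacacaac
Mmp1a (chr9:7464042-7464101, plus strand): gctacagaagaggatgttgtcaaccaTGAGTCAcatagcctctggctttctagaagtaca
Mmp10 (chr9:7502253-7502312, plus strand): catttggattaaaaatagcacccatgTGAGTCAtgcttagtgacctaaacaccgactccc
Mmp20 (chr9:7628110-7628169, plus strand): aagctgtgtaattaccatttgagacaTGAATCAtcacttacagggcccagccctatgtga
Mmp7 (chr9:7692001-7692060, plus strand): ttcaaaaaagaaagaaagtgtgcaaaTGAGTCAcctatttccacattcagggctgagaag

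Of these 10 neighbours, Mmp13 and Mmp12 had a mean of at least 10 over the 8 libraries, the level needed for testing. Mmp13, the main interstitial collagenase of rodents, had normalized values of 118, 125, 151 and 114 in siCasp8 and of 127, 97.3, 87.8 and 114 in Scr. The groups overlapped, and the log2 fold change was 0.26 with a 95% interval of -0.06 to 0.57 (limma adjusted p = 0.185). Mmp12, known as macrophage elastase, had 15.2 to 31.0 in siCasp8 and 18.1 to 28.5 in Scr. The other 8 neighbours stayed at or below 5.16 in every library. Mmp1a, Mmp1b and Mmp8, all collagenase genes, were listed at 0 throughout. Mmp8 and Mmp27 were the cluster genes without the word.

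**Figure D1:**
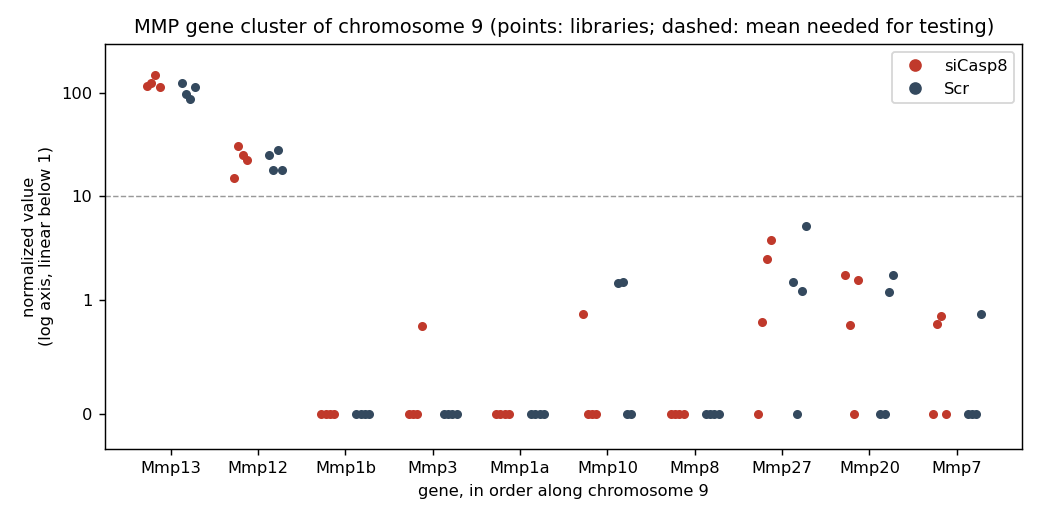
Normalized value per library (vertical log axis, linear below 1) of the 10 MMP genes of chromosome 9, in their order along the chromosome, with siCasp8 libraries in red and Scr libraries in dark blue. Mmp13 lies between 87.8 and 151 and Mmp12 between 15.2 and 31.0, while the other 8 genes lie at or below 5.16.

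The libraries differ in depth. Depth, estimated from the value that 1 read is worth (0.773 to 1.47), was 50.5 to 57.1 M reads in siCasp8 and 30.7 to 51.8 M reads in Scr. In an exact two-sided permutation test the depths gave p = 0.0571, where the smallest p possible is 0.0286. Casp8 itself had 1374 to 1627 in siCasp8 and 3825 to 4134 in Scr, so 37.3% of the Scr level was left. Of the marker lists, 9 of 10 hepatocyte markers had a mean of at least 10 and Cps1 stayed at or below 2.38. Their sum was 122117 to 126897 in siCasp8 and 124243 to 133206 in Scr, mostly from Krt8, Krt18 and Apob. Single hepatocyte markers differed, with Alb at 3379.8 to 3948 in siCasp8 and 70.5 to 94.4 in Scr, and Ttr at 6726 to 7114 in siCasp8 and 2244 to 2656 in Scr. Markers of bile duct cells (6 of 7 with a mean of at least 10) summed to 129229 to 136579 in siCasp8 and to 114618 to 123301 in Scr. For stellate cells and fibroblasts (3 of 8 with a mean of at least 10) the sums were 104 to 183 in siCasp8 and 127 to 189.6 in Scr, with Pdgfrb at or below 1.19. For macrophages (3 of 6) they were 578 to 654 in siCasp8 and 779 to 848 in Scr, where Csf1r made the difference and Adgre1, Clec4f and Marco were at 0. For endothelium (2 of 6) they were 210.1 to 334 in siCasp8 and 218 to 561 in Scr, with Cdh5 and Lyve1 at 0. Of the 7 markers of male germ cells, where many ADAMs are made, none reached a mean of 10, and they summed to 0.877 to 3.19 in siCasp8 and 0 to 2.91 in Scr. The part of these markers in the results was not tested. In bulk RNA, fewer cells of a type and less RNA per cell cannot be told apart.

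Of the 85 members, 44 had a mean of at least 10 and were tested, and 41 were not. Of those 41, 15 were listed at 0 in all 8 libraries. They include the gelatinase gene Mmp2, whose precursor MMP14 is known to activate, and the germ cell ADAM genes Adam20, Adam24, Adam25, Adam29 and Adam34. The other 26 had means of at most 8.52, the mean of Adamtsl2, while the lowest tested mean was 10.8, for Adam4. The groups did not overlap for 1 gene among the 41, Mmp9, the other gelatinase gene, named here after its values were seen. Mmp9 had 1.83, 2.58, 6.80 and 3.25 in siCasp8 and 0.950, 0, 1.57 and 0 in Scr. Each value is worth few reads, and the siCasp8 libraries were the deeper ones for the most part. The share of such genes among all untested genes was not counted, so 1 of 41 is no result about the family. Adamts17 and Adam19 passed the filter through their siCasp8 values only, and Adam4 through its Scr values only.

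Levels of different genes were compared per length, as the normalized value per 1000 bases of the longest coding transcript in GENCODE M21. On this scale Timp2, Adamts1, Adam10 and Mmp14 led the family. Timp2 made up 18.8% ± 0.247 of the summed level of all members in siCasp8 and 20.5% ± 0.711 in Scr. The proteoglycanase gene Adamts1 made up 17.8% ± 0.326 in siCasp8 and 16.1% ± 0.487 in Scr, and the sheddase gene Adam10 13.7% ± 0.390 in siCasp8 and 12.8% ± 0.645 in Scr. These errors are SDs over 4 libraries. Mmp14, the gene of the membrane collagenase MT1-MMP, came next with 2450.4 per 1000 bases in siCasp8 and 2504 in Scr. Timp1 and Adam9 followed with 9.31% and 7.71% in siCasp8 and 9.25% and 7.60% in Scr. Since shares sum to a whole, a change in an abundant member moves the share of every other member. By family, TIMPs held 28.1% ± 0.394 of the summed level in siCasp8 and 29.7% ± 0.749 in Scr, and MMPs 17.8% ± 0.351 in siCasp8 and 18.1% ± 0.493 in Scr.

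**Figure D2:**
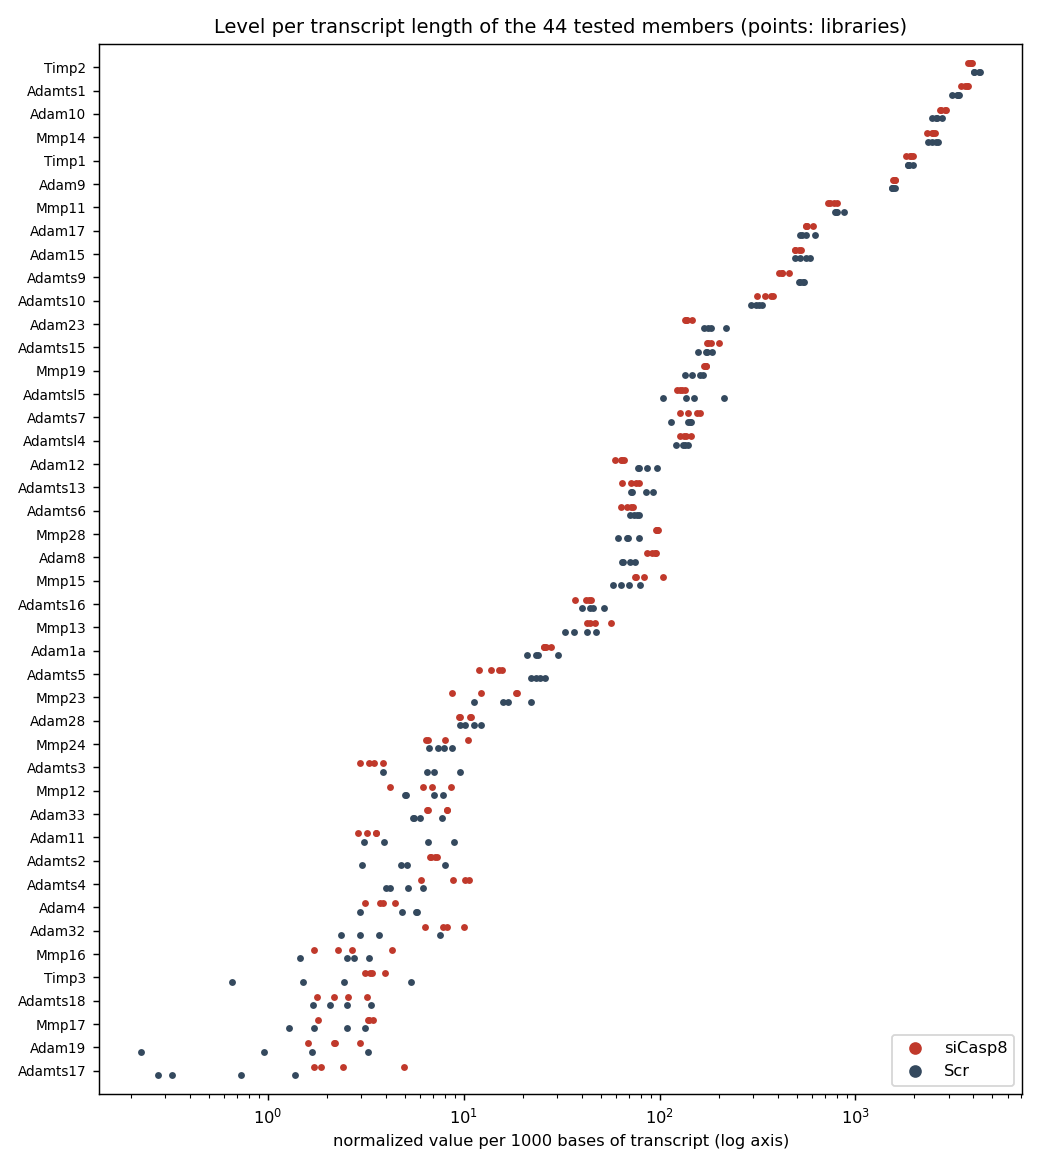
Normalized value per 1000 bases of the longest coding transcript (horizontal log axis) for the 44 tested members, ordered by their Scr mean, with 1 point per library and siCasp8 (red) above Scr (dark blue). Timp2, Adamts1, Adam10 and Mmp14 lie at the top, with Timp2 at 18.8% of the family's summed level in siCasp8 and 20.5% in Scr.

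After Casp8 silencing 7 members rose and 6 fell, and 31 of the 44 tested members were not called. The rises were in the MMP genes Mmp28 and Mmp15, the ADAM genes Adam8 and Adam32 and the ADAMTS genes Adamts17, Adamts4 and Adamts1. The falls were in Adamts5, Adamts3, Adamts9, Adam23, Adam12 and Timp2. Calls are from limma's moderated test on log2(value + 1) across all 14154 tested genes, at a Benjamini-Hochberg adjusted p under 0.05, a scale on which the fold of a low gene comes out too small. The 13 calls are 29.5% of the tested members, against 40.2% of all tested genes, of which 19.4% were higher and 20.8% lower. The groups did not overlap for 10 of the 44, against 37.5% of all tested genes. Of the 44, 11 were called with an absolute log2 fold change of at least 0.3, against 19.8% of all tested genes. The median log2 fold change was 0.036 for the members and 0.0025 for all tested genes. Rescaling the libraries to a common upper quartile moved the median of all genes to 0.10. It gave 12 higher and 5 lower members, and 4475 higher and 1665 lower genes in all. This quartile was taken over values above 0 only, so it depends on how many genes were detected. Genes above 0 numbered 18706 to 18947 in siCasp8 libraries and 17718 to 18565 in Scr libraries, and the part of this in the shift was not tested. With estimated depth as a covariate, 4 members were higher and 3 lower. Without siCasp8 replicate 1 or siCasp8 replicate 4, the number of higher members was 4. Adam8, Adam12, Adamts5 and Adamts9 were called under every alternative that was run. Adamts17 passed the filter only through siCasp8, the group in which it is higher (mean 17.6, against 4.33 in Scr), so its call carries less weight. It lay below the level for testing without siCasp8 replicate 1 and with a minimum mean of 50. The other alternatives called it, but most of them keep the same filter.

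**Figure D3:**
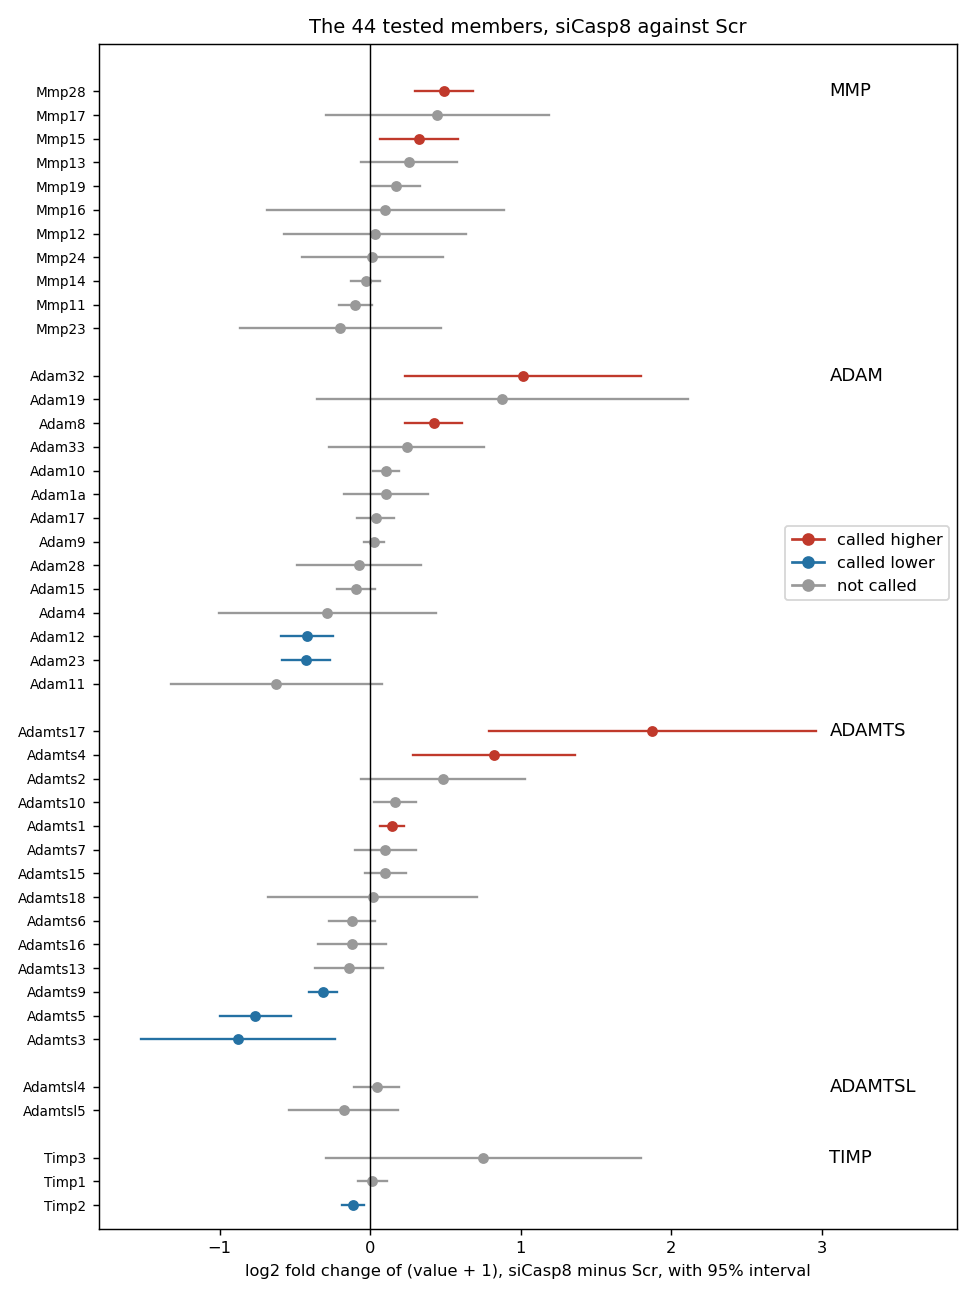
Log2 fold change of (value + 1), siCasp8 minus Scr, with its 95% interval from limma (horizontal axis), for the 44 tested members grouped by family and ordered within it. Red marks the 7 called higher, blue the 6 called lower and grey the 31 not called, and Adamts17 (1.87) and Adamts3 (-0.88) are the ends of the range.

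Among MMPs, 2 of 11 tested members rose and none fell in limma's test. The calls are 18.2% of the 11, while 19.4% of all tested genes were higher and 20.8% lower. No MMP was called lower under the alternatives either, and 0 of the MMPs with a negative fold change had an unadjusted p under 0.05, the lowest being that of Mmp11 (0.071). The alternatives use the same libraries, and in 11 genes a lack of falls is no result about MMPs. Mmp28, which encodes epilysin, a secreted MMP of epithelia, rose to 332, 335, 338 and 328 in siCasp8, against 234, 237, 210.2 and 271 in Scr. All siCasp8 libraries lay above all Scr libraries. The difference on the log2 scale was 0.49 (SE 0.0885, limma adjusted p = 0.000825), and with the depth covariate the adjusted p was 0.0866. Mmp15, the gene of the membrane enzyme MT2-MMP, had 534, 387, 389.7 and 429.7 in siCasp8 and 359, 407, 298 and 324 in Scr. The groups overlapped, with siCasp8 replicate 1 far above the others. Its log2 fold change of 0.32 (SE 0.119, limma adjusted p = 0.0479) was the call nearest the threshold. Without siCasp8 replicate 1 it was 0.22 (adjusted p = 0.145), and the call was also lost without siCasp8 replicate 4 (0.0853), Scr replicate 1 (0.0656), Scr replicate 3 (0.116) or Scr replicate 4 (0.107).

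Mmp14, the most abundant MMP gene, had 7476, 8079, 7936 and 8246 in siCasp8 and 7562, 8522, 7990.3 and 8360.2 in Scr. The groups overlapped, and the log2 fold change of -0.03 had a 95% interval of -0.13 to 0.07 (limma adjusted p = 0.623). Its sign turned under upper quartile rescaling (0.070) and quantile normalization (0.032). Mmp11, the gene of stromelysin-3, which furin activates before secretion, averaged 1744 ± 84.9 in siCasp8 and 1866 ± 84.5 in Scr (-0.10, limma adjusted p = 0.137). Mmp19, a widely made MMP, had 583, 584, 585 and 571 in siCasp8 and 457, 498, 567 and 546 in Scr. The groups did not overlap, with siCasp8 libraries close together and Scr libraries spread out. Mmp19 was not called at a log2 fold change of 0.17 (limma adjusted p = 0.0818), and it passed without Scr replicate 3 (0.0335) and under upper quartile rescaling (0.0173). Over all alternatives its limma adjusted p reached up to 0.863, and its log2 fold change went down to 0.036.

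The other tested MMP genes had means under 50 and wide intervals. Of the membrane-type genes besides Mmp14 and Mmp15, Mmp17 had 11.6 to 22.1 in siCasp8 and 8.25 to 20.2 in Scr (log2 fold change 0.45, 95% interval -0.30 to 1.19). Mmp16 had 8.66 to 21.6 in siCasp8 and 7.33 to 16.5 in Scr (0.10, -0.69 to 0.89), and Mmp24 had 27.6 to 45.1 in siCasp8 and 28.8 to 37.6 in Scr (0.01, -0.46 to 0.48). Mmp23, an MMP anchored by its own N-terminal part, had 12.5 to 26.9 in siCasp8 and 16.1 to 31.6 in Scr (-0.20, -0.87 to 0.47). Mmp12 had a log2 fold change of 0.03 (-0.57 to 0.64). The groups overlapped for all 5, and the intervals include changes of over 0.4 on the log2 scale in both directions except for the fall of Mmp17.

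Among ADAMs, 2 of 14 tested members rose and 2 fell, so 28.6% were called, against 40.2% of all tested genes. Adam8, the gene of a sheddase best known from leukocytes, rose to 298, 286, 269 and 296 in siCasp8, against 204, 234, 219.8 and 200.2 in Scr. The groups were apart by more than the spread within either, with a log2 fold change of 0.42 (SE 0.0864, limma adjusted p = 0.00195). The leukocyte marker Ptprc had 139 to 174 in siCasp8 and 124 to 143 in Scr, Cd68 had 109 to 127 in siCasp8 and 108 to 127 in Scr, and Csf1r had 321 to 388 in siCasp8 and 542 to 611 in Scr. Their part in the Adam8 values was not tested. Adam12, the gene of a membrane ADAM with a secreted form, fell to 494, 487, 456 and 506 in siCasp8, against 594, 604, 665 and 744 in Scr. All siCasp8 libraries lay below all Scr libraries, with a log2 fold change of -0.42 (SE 0.0788, limma adjusted p = 0.0011).

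The other ADAM calls were in genes of proteins that lack a working protease site. Adam23, which encodes an adhesion protein that binds integrins, fell to 865, 944, 886 and 874 in siCasp8, against 1402, 1086, 1181 and 1140.4 in Scr. The groups did not overlap, and Adam23 differed by -0.42 on the log2 scale (SE 0.0738, limma adjusted p = 0.000618, and 0.0515 with the depth covariate). Adam32, an ADAM gene best known from testis, had 24.5, 19.3, 20.2 and 15.6 in siCasp8 and 18.5, 7.22, 9.02 and 5.80 in Scr. Its groups overlapped through Scr replicate 1, and the call (1.01, SE 0.360, limma adjusted p = 0.0405) was lost on leaving out any library other than Scr replicate 1. Those adjusted p-values were 0.111, 0.0802, 0.0815 and 0.0506 without siCasp8 replicates 1 to 4 in turn. They were 0.083, 0.0634 and 0.103 without Scr replicates 2 to 4, and without Scr replicate 1 it was 0.00688. The third tested gene of this kind, Adam11, averaged 16.9 ± 1.73 in siCasp8 and 28.7 ± 13.6 in Scr and was not called (limma adjusted p = 0.146). Adam11 passed without Scr replicate 2 (limma adjusted p = 0.0421). Over all alternatives its limma adjusted p reached up to 0.391, and its log2 fold change lay between -1.28 and -0.37.

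The abundant sheddase genes showed small differences. Adam10, whose product starts the cleavage of Notch receptors and cadherins, had 12522, 13159.9, 13289.9 and 12469 in siCasp8 and 11320.1, 11836, 12685 and 11971 in Scr. Only Scr replicate 3 reached into the siCasp8 range. Its log2 fold change of 0.11 (95% interval 0.02 to 0.19) missed the threshold at a limma adjusted p of 0.0515, and it passed without Scr replicate 3 (0.0123), with a minimum mean of 50 (0.046) and under quantile normalization (0.0025). Over all alternatives the limma adjusted p of Adam10 reached up to 0.513, and its log2 fold change went down to 0.069. Adam17, the gene of the TNF-releasing enzyme TACE, had 2532, 2697, 2486 and 2504 in siCasp8 and 2485, 2784, 2317 and 2388 in Scr. The groups overlapped throughout, with a log2 fold change of 0.04 (-0.08 to 0.16). Adam9 averaged 6379.6 ± 77.5 in siCasp8 and 6256 ± 106 in Scr (0.03, -0.04 to 0.10), and it passed under upper quartile rescaling (0.13, limma adjusted p = 0.0108). Adam15 averaged 1503 ± 55.6 in siCasp8 and 1606 ± 127 in Scr (-0.09, -0.22 to 0.03). For Adam9, Adam10 and Adam17 the intervals leave out log2 fold changes beyond 0.2 in either direction on the deposited scale, while upper quartile rescaling put Adam10 at 0.21 (limma adjusted p = 0.00314).

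ADAMTS genes held the largest rise and the largest fall among the tested members, those of Adamts17 and Adamts3. Both are low genes, and Adamts17 passed the filter through its siCasp8 values only. Of 14 tested ADAMTS genes 3 were higher and 3 lower, so 42.9% were called, against 40.2% of all tested genes. The enzymes that cut the proteoglycans aggrecan, versican and their kin went both ways. Of 7 such genes 5 were tested, Adamts1 and Adamts4 rose, Adamts5 and Adamts9 fell and Adamts15 was not called. With the depth covariate, none of the 5 was called higher and Adamts5 and Adamts9 were called lower. Adamts5, the main aggrecanase gene of mouse cartilage, fell to 129.6, 148, 169.7 and 164 in siCasp8, against 264, 253, 279.7 and 239 in Scr. The highest siCasp8 library lay well below the lowest Scr library, with 59.0% of the Scr mean left and a log2 fold change of -0.76 (SE 0.107, limma adjusted p = 0.000125). Adamts9 fell to 3393, 3244, 3367 and 3654 in siCasp8, against 4159, 4319.8, 4107 and 4369 in Scr. It was lower in 4 of 4 siCasp8 libraries than in any Scr library, by -0.31 on the log2 scale (SE 0.0427, limma adjusted p = 9.88e-05).

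Adamts1 and Adamts5 are neighbours. Adamts1 lies on chromosome 16 from 85793827 to 85803113 and Adamts5 from 85856173 to 85901828, both on the minus strand (GRCm38), with 53059 bases between them. Adamts1 rose slightly, to 16927, 18043, 17791 and 18248 in siCasp8, against 15196, 16182, 16225 and 16509 in Scr. The groups did not overlap, and they differed by 0.15 on the log2 scale (SE 0.0370, limma adjusted p = 0.00688), which with the depth covariate was 0.082 (0.341). Adamts4, the gene of the other well-studied aggrecanase, had 38.8, 26.5, 46.7 and 44.9 in siCasp8 and 22.8, 18.5, 27.3 and 17.6 in Scr. The ranges touched, since the lowest siCasp8 library lay below Scr replicate 3. The groups differed by 0.82 on the log2 scale (SE 0.247, limma adjusted p = 0.0186), and the call was lost without siCasp8 replicate 3 (0.0598), without siCasp8 replicate 4 (0.0582) and with the depth covariate (0.115). Adamts15 had 1053, 1091, 1040.4 and 1194 in siCasp8 and 936, 1098, 1019 and 1032 in Scr (0.10, limma adjusted p = 0.232), and it passed under upper quartile rescaling (0.0283).

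The remaining ADAMTS calls were in low genes. Adamts17, whose human counterpart is mutated in a syndrome of short stature and lens dislocation, rose to 31.9, 15.5, 11.9 and 11.1 in siCasp8, against 8.79, 1.76, 4.68 and 2.08 in Scr. The groups did not overlap, though siCasp8 replicate 1 was far above the other siCasp8 libraries and the Scr values are worth few reads. Adamts17 passed the filter through its siCasp8 values only. Its log2 fold change of 1.87 (SE 0.499, limma adjusted p = 0.00981) was the largest in the family, and it was 0.91 with a pseudocount of 10 and 2.48 with the depth covariate. Adamts3, which encodes a protease that trims procollagen and helps to activate VEGF-C, had 13.8, 11.6, 15.3 and 12.9 in siCasp8 and 37.7, 25.6, 27.9 and 15.2 in Scr. Scr replicate 4 fell within the siCasp8 range. The difference on the log2 scale was -0.88 (SE 0.297, limma adjusted p = 0.0328), and with the depth covariate it was -0.19 (0.801). The call was also lost without siCasp8 replicates 1, 2 or 4 (0.06, 0.0791 and 0.066) and without Scr replicates 1, 2 or 3 (0.0972, 0.0575 and 0.0676). Of the other procollagen trimming genes, Adamts2 had 49.0 to 53.1 in siCasp8 and 22.1 to 58.3 in Scr and was not called (limma adjusted p = 0.148), though it passed without Scr replicate 3 (0.0238).

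Adamts10, whose product acts on fibrillin microfibrils, had 1532, 1489, 1275 and 1398 in siCasp8 and 1257, 1179, 1347 and 1297 in Scr. The log2 fold change was 0.16 (limma adjusted p = 0.0613), and it passed without siCasp8 replicate 3 (0.0156), without Scr replicate 3 (0.0391), under upper quartile rescaling (0.0103) and under quantile normalization. Over all alternatives the limma adjusted p of Adamts10 reached up to 0.597, and its log2 fold change went down to 0.091. Adamts7, the gene of an enzyme that cuts the cartilage protein COMP, averaged 782 ± 83.7 in siCasp8 and 729 ± 77.5 in Scr (0.10, -0.10 to 0.30). Of the ADAMTS-like genes, which encode related proteins with no protease part, the 2 tested were not called in limma's test, with unadjusted p-values of 0.537 and 0.309. Adamtsl4 averaged 547 ± 28.8 in siCasp8 and 530.5 ± 31.7 in Scr, and Adamtsl5 averaged 252 ± 10.0 in siCasp8 and 295 ± 88.6 in Scr. The tested members not described one by one include Adam19, with a log2 fold change of 0.88, and Adamts13, with -0.14, and none of them was called by limma (adjusted p = 0.245 for Adam19 and 0.301 for Adamts13).

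Among TIMPs, Timp2 was the abundant member and fell slightly. Timp2, whose product both inhibits MMPs and joins MMP14 at the cell surface, had 13959, 14378, 14583 and 14193 in siCasp8 and 15795, 16113, 14983 and 14958 in Scr. All 4 siCasp8 libraries lay below all 4 Scr libraries, by -0.11 on the log2 scale (SE 0.0346, limma adjusted p = 0.0194). The call was lost without siCasp8 replicate 1 (0.0619) or Scr replicate 1 (0.0531), and the log2 fold change was -0.014 under upper quartile rescaling (0.784) and -0.049 with the depth covariate (0.561). Timp1, an inhibitor gene known to rise in liver injury, had 1743, 1678, 1606 and 1693 in siCasp8 and 1629, 1733, 1631 and 1661 in Scr. The groups overlapped throughout, and the log2 fold change of 0.01 had a 95% interval of -0.08 to 0.11. Timp3, whose product stays bound to matrix and also inhibits ADAM17 and aggrecanases, had 15.8, 18.7, 16.1 and 14.8 in siCasp8 and 11.5, 7.17, 3.12 and 25.5 in Scr. Its Scr libraries spread to both sides of siCasp8 (0.75, 95% interval -0.30 to 1.80), and it passed without Scr replicate 4 (limma adjusted p = 0.0417). Timp4 stayed at or below 5.03 and was not tested.

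**Figure D4:**
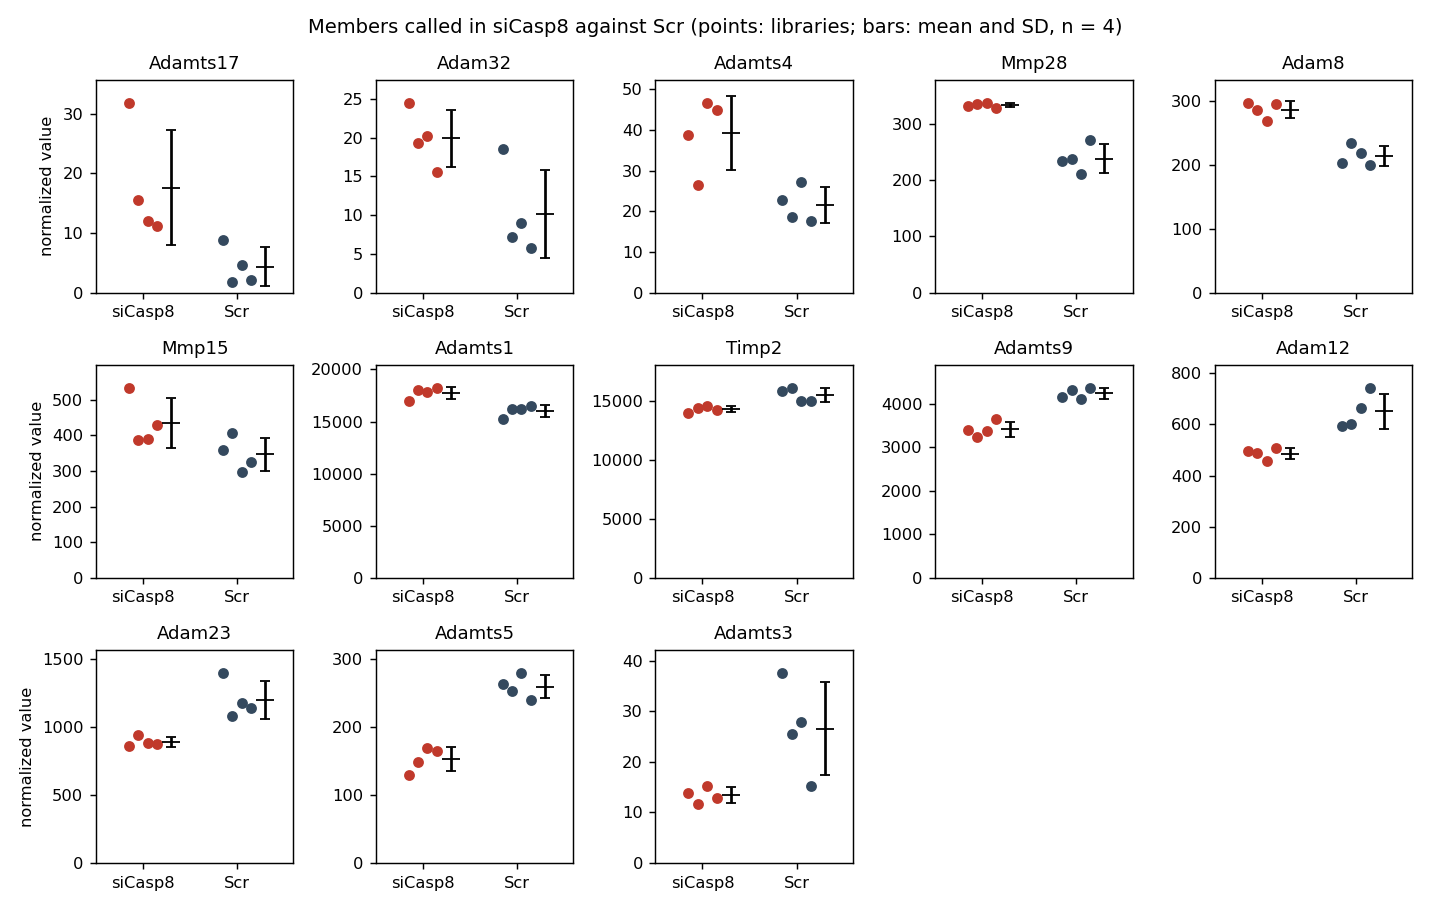
Normalized values (vertical axes from 0) of the 13 called members, with 1 point per library, siCasp8 in red left of Scr in dark blue, and the mean and SD of the 4 libraries as bars. Mmp28, Adam8, Adamts5, Adamts9, Adam12 and Adam23 show groups apart from each other, while Adam32, Adamts4, Adamts3 and Mmp15 overlap.

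Some of these values may hold reads of other genes, since whether strand was used in counting is not given in the sources used here. In GENCODE M21 an exon of another gene overlaps on the opposite strand for genes that include Adam8 (Gm16201), Adam15 (4731419I09Rik), Adam17 (Iah1), Adamts7 (Tbc1d2b), Mmp11 (Chchd10), Mmp19 (Tmem198b and Gm47093), Mmp24 (BC029722), Mmp28 (1700020L24Rik) and Mmp12 (its neighbour Mmp1b). Noncoding genes overlap Adamts9 in the same way. Timp1, Timp3 and Timp4 lie within the synapsin genes Syn1, Syn3 and Syn2. Adamts5, Adam12, Adam23, Adamts17, Adamts1, Adamts3, Mmp15 and Timp2 have no such exon overlap.

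Genes around the family changed too, from lists of known activators, partners, substrates and regulators. Of 23 tested activators, inhibitors and partners, 4 rose and 5 fell, so 39.1% were called, against 40.2% of all tested genes. Their median log2 fold change was -0.03. Upper quartile rescaling gave 7 and 3, and the depth covariate 2 and 1. Leaving out a library in turn gave 2 to 7 higher, the 2 without siCasp8 replicates 1 or 2 or Scr replicate 4 and the 7 without Scr replicate 2. Plau, the gene of urokinase, which makes the MMP-activating protease plasmin, fell to 302 ± 11.1 in siCasp8, against 523 ± 14.8 in Scr (-0.79, limma adjusted p = 1.81e-06). Tspan14 and Tspan17, genes of tetraspanins that escort ADAM10 to the cell surface, rose by 0.26 and 0.23. The call of Tspan17 was lost with the depth covariate.

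Of 31 tested genes of cell-surface proteins known as substrates of ADAM10 or ADAM17, 12 rose and 6 fell. So 58.1% were called, against 40.2% of all tested genes, and the median log2 fold change was 0.14. The split was 17 and 3 after upper quartile rescaling, where 72.9% of all called genes were higher, against 48.1% in the main fit. It was 11 and 4 under quantile normalization and 5 and 2 with the depth covariate. Without siCasp8 replicate 2 it was 7 and 4. The adhesion gene Vcam1 rose to 9434 ± 432 in siCasp8, against 5084 ± 185 in Scr (0.89, limma adjusted p = 2.04e-08). Cxcl16, a membrane-bound chemokine gene, rose to 881 ± 37.6 in siCasp8, against 565 ± 4.46 in Scr (0.64). The N-cadherin gene Cdh2 fell to 13324 ± 113 in siCasp8, against 16614 ± 573 in Scr (-0.32), and the receptor kinase gene Axl fell by 0.31 on the log2 scale.

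Of 18 tested genes of matrix proteins known as substrates of MMPs or ADAMTS enzymes, 3 rose and 7 fell. So 55.6% were called, against 40.2% of all tested genes, and the median log2 fold change was -0.16. Upper quartile rescaling gave 3 and 3, and the depth covariate 1 and 3. Leaving out a library in turn gave 3 higher each time and 4 to 8 lower, the 4 without siCasp8 replicates 3 or 4 or Scr replicates 1 or 4. The thrombospondin gene Thbs1 fell to 2384 ± 157 in siCasp8, against 3782 ± 377 in Scr (-0.66, limma adjusted p = 9.61e-06). Col18a1, the collagen gene whose product yields endostatin, fell to 18713 ± 1159 in siCasp8, against 25367 ± 1363 in Scr (-0.44). The laminin gene Lamb3 rose by 0.43, and the osteopontin gene Spp1 by 0.21, which did not pass with the depth covariate.

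Of 15 tested zinc metalloproteases outside the family, 3 rose and 6 fell, so 60% were called, against 40.2% of all tested genes. The median log2 fold change was -0.10. Upper quartile rescaling gave 3 and 4. Cpn1, which encodes the catalytic chain of plasma carboxypeptidase N, rose to 2597 to 2971 in siCasp8, against 1315 to 1369 in Scr (1.05, limma adjusted p = 1.63e-08). Enpep, the gene of the aminopeptidase that trims angiotensin II, rose to 218 ± 24.6 in siCasp8, against 113 ± 14.3 in Scr (0.94). Mme, the gene of neprilysin, fell to 2325 ± 139.9 in siCasp8, against 3939.7 ± 301 in Scr (-0.76, limma adjusted p = 1.18e-06), and the carboxypeptidase gene Cpd fell by 0.31.

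Of 16 tested genes of AP-1, ETS and RUNX factors known to act on MMP promoters, 4 rose and 6 fell. So 62.5% were called, against 40.2% of all tested genes, and the median log2 fold change was -0.07. The split was 5 and 6 after upper quartile rescaling and 3 and 6 with the depth covariate. Etv5 rose to 1035 ± 50.4 in siCasp8, against 497 ± 11.8 in Scr (1.06, limma adjusted p = 5.67e-08), and Elf3 rose by 0.53. Ets1 fell to 5722 ± 166 in siCasp8, against 7568 ± 139 in Scr (-0.40, limma adjusted p = 1.74e-06), and Ets2 fell by 0.36. Over the 5 lists, between 39.1% and 62.5% of the tested genes were called, beside the 40.2% of all tested genes, and these shares are a description with no test of a list.

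**Figure D5:**
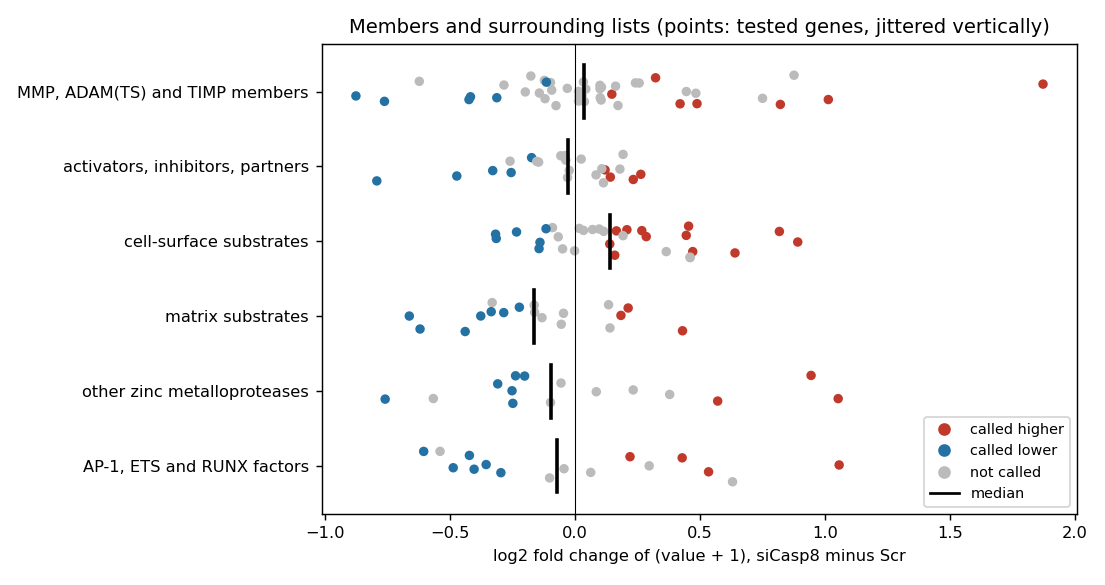
Log2 fold change of (value + 1), siCasp8 minus Scr (horizontal axis), of each tested gene among the members and in 5 surrounding lists, with called genes in red (higher) or blue (lower), others in grey and the list median as a black bar. The medians lie between -0.16 for matrix substrates and 0.14 for cell-surface substrates, with 0.036 for the members.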

How the data were processed

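Gene expression was measured by RNA-seq of poly-A RNA in 8 AML12 libraries, 4 siCasp8 and 4 Scr, grouped by their titles, with columns matched through the library names in the labels. Per the submitters' processing notes, bcl2fastq 2.19, kallisto 0.44.0, sleuth, DESeq2, GRCm38 and GRCh38 were used, with no role or order given. The values that the authors deposited are a normalized signal per gene symbol, per the file name kallisto estimates normalized with DESeq2, and are not whole reads. The sources used here do not say how transcripts were summed to genes. Of the low values 63.0% to 75.0% lay within 0.1 read of a whole multiple, so no count test was used. A row without a symbol, left out here, made up between 0.0481% and 0.0631% of a library.

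Genes with a mean of at least 10 over the 8 libraries (14154) were tested with limma 3.58.1 in R 4.3.3 on log2(value + 1), two-sided, with the prior variance following the mean and Benjamini-Hochberg adjustment over all of them. The code of the test was tried on simulated data with few changed genes and independent noise. That setting differs from these data, so it is no check of the calls given here. Errors are SDs over 4 libraries or limma's SE. The design text calls the cultures biological replicates. Named members are all TIMPs, all tested MMPs, every other called member with an absolute log2 fold change of at least 0.3, and the 5 most abundant ADAMs and 5 most abundant ADAMTS or ADAMTS-like genes, and some further tested members are given with their values. Each list is shown by its 2 most significant calls per direction, of which 1 is not reported here. The members and lists were chosen with earlier results of these data known. Positions are from GENCODE M21 (84 of 85 members matched), and promoter windows are from RefSeq on GRCm38.p6 (54 matched). Protein sequences were not analysed here. The alternatives were other pseudocounts, filters and scalings, no trend, a replicate block, depth as a covariate and leaving out each library.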

Additional observations from a re-analysis of the deposited data

Results flagged for a closer look

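In 3 of 66 groups of 4 values examined, a single library stood apart from the other 3 by a large part of the group's range, and chance alone flags about 1 in 20 such groups. Mmp17 in siCasp8 replicate 4 was 11.6, against 20.8 to 22.1 in the other siCasp8 libraries. Mmp19 in siCasp8 replicate 4 was 571, against 583 to 585 in the others, a gap that is wide only beside their narrow spread. Adamts7 in Scr replicate 3 was 614, against 756 to 781 in the other Scr libraries.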

How the results depend on the processing

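Of the values of 31 named members under the alternatives, 477 kept their direction and side of the threshold, 35 lost their call, 14 gained one and 21 changed sign, none of these being a called member. Upper quartile rescaling gave 12 higher members, 4475 higher and 1665 lower genes in all, and 19 lower genes in the surrounding lists. The depth covariate gave 4 higher and 3 lower members, 1289 higher and 1475 lower genes in all, and 14 higher and 17 lower genes in the lists. Leaving out 1 library gave 4 to 9 higher members. Signs turned for Timp3 (-0.12) and Mmp16 (-0.27) with the depth covariate, for Mmp11 (0.0026), Mmp14 (0.070) and Adam15 (0.0076) under upper quartile rescaling, and for Mmp12 (-0.11), Mmp14 (0.032), Mmp16 (-0.086) and Mmp24 (-0.13) under quantile normalization. Leaving out 1 library moved Timp1 between -0.0036 and 0.036, Mmp12 between -0.11 and 0.22, Mmp16 between -0.13 and 0.28, Mmp23 between -0.36 and 0.013, and Mmp24 between -0.13 and 0.10. The cause of these shifts was not tested. The main fit did not take the replicate numbers as pairs. Same-numbered libraries correlated only weakly in their deviations from the group means, by 0.0785, 0.0442, 0.169 and 0.0554. Each siCasp8 library still correlated best with its own number, so a pairing cannot be dismissed. With the replicate block, 8 members were higher and 6 lower, and 2868 and 3152 genes in all, and Adam10 passed (limma adjusted p = 0.0189). Median of ratios rescaling left the counts at 7 higher and 6 lower members. The calls lost with the depth covariate were those of Adamts1, Timp2, Adam23 and Mmp28 and of the low genes Adamts3 and Adamts4, while the low genes Adamts17 and Adam32 kept theirs.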
